A study of Mus musculus with 5 samples.

Results

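The genes described here make, regulate, use or move the lipids of brain membranes and myelin. They are 35 mouse genes chosen by function: 16 enzymes of sterol synthesis, 3 regulators of that synthesis, 5 genes of fatty acid synthesis and desaturation, 4 fatty acid elongases, 4 genes of myelin lipid synthesis and 3 genes of sterol turnover and export. Array probes were matched to gene symbols through their RefSeq accessions. All 35 were named, and all 35 were well above background on every array, out of 21145 named genes of which 16887 were tested.

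The study compared glioma with normal mouse brain by total RNA on single-colour Agilent expression arrays, 1 array per sample. Glioma was represented by 3 arrays from a model built on MADM (mosaic analysis with double markers, a genetic method in which recombination between chromosomes leaves sparse cells that are mutant and marked by colour), and normal brain by 2 arrays. Samples of both groups were labelled as brain tissue taken at postnatal day 150. Neither group has a mutated gene, driver line, strain, sex or brain region in its labels.

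Cholesterol does not pass from blood into the adult brain, so brain cells make their own, from acetyl-CoA through mevalonate, squalene and lanosterol. Oligodendrocytes use most of it for myelin, whose membrane is also rich in galactolipids that carry very long and hydroxylated fatty acids. Transcription of these enzymes is driven by the sterol regulatory element binding proteins (SREBPs), which Insig proteins hold in the endoplasmic reticulum when sterols are plentiful, and neurons clear surplus cholesterol by hydroxylating it.

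Levels are given as log2 of the background-subtracted signal relative to the array's own 75th percentile, so a level of 0 equals that percentile, and levels of different probes are not compared. A change is the glioma mean minus the normal brain mean on this log2 scale, with its standard error (SE), and p-values are from limma with Benjamini-Hochberg adjustment over all 16887 genes, with a threshold of 0.05. Between 61.5% and 70.3% of spots were well above background on each array, with no saturation. A single slide held the 5 arrays, gliomas in one row and normal brains in the other, so slide row and group cannot be told apart. Xist was detected on glioma array 3 and on no other, so that sample differed in sex. Whether the samples of a group are separate animals is not given, so each p-value speaks only of the spread among these 5 samples, which may be technical.

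Over all genes, 51.4% passed the test: 23.7% were higher and 27.8% lower in glioma. Of the 35 lipid genes, 16 passed, 5 higher and 11 lower, which is 45.7% and is near that background. Levels of the groups did not overlap in 22 of the 35, or 62.9%, against 74.1% of all genes. In whole tissue, fewer cells of a type and less RNA per cell cannot be told apart. The median change was -0.07 over the 35 genes and -0.05 over all genes. Without scaling between arrays, as in the authors' value table, the median over all genes moved to 0.31, the share of calls that were higher went from 46.0% to 63.8%, and the lipid genes split into 8 higher and 7 lower.

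**Figure D1:**
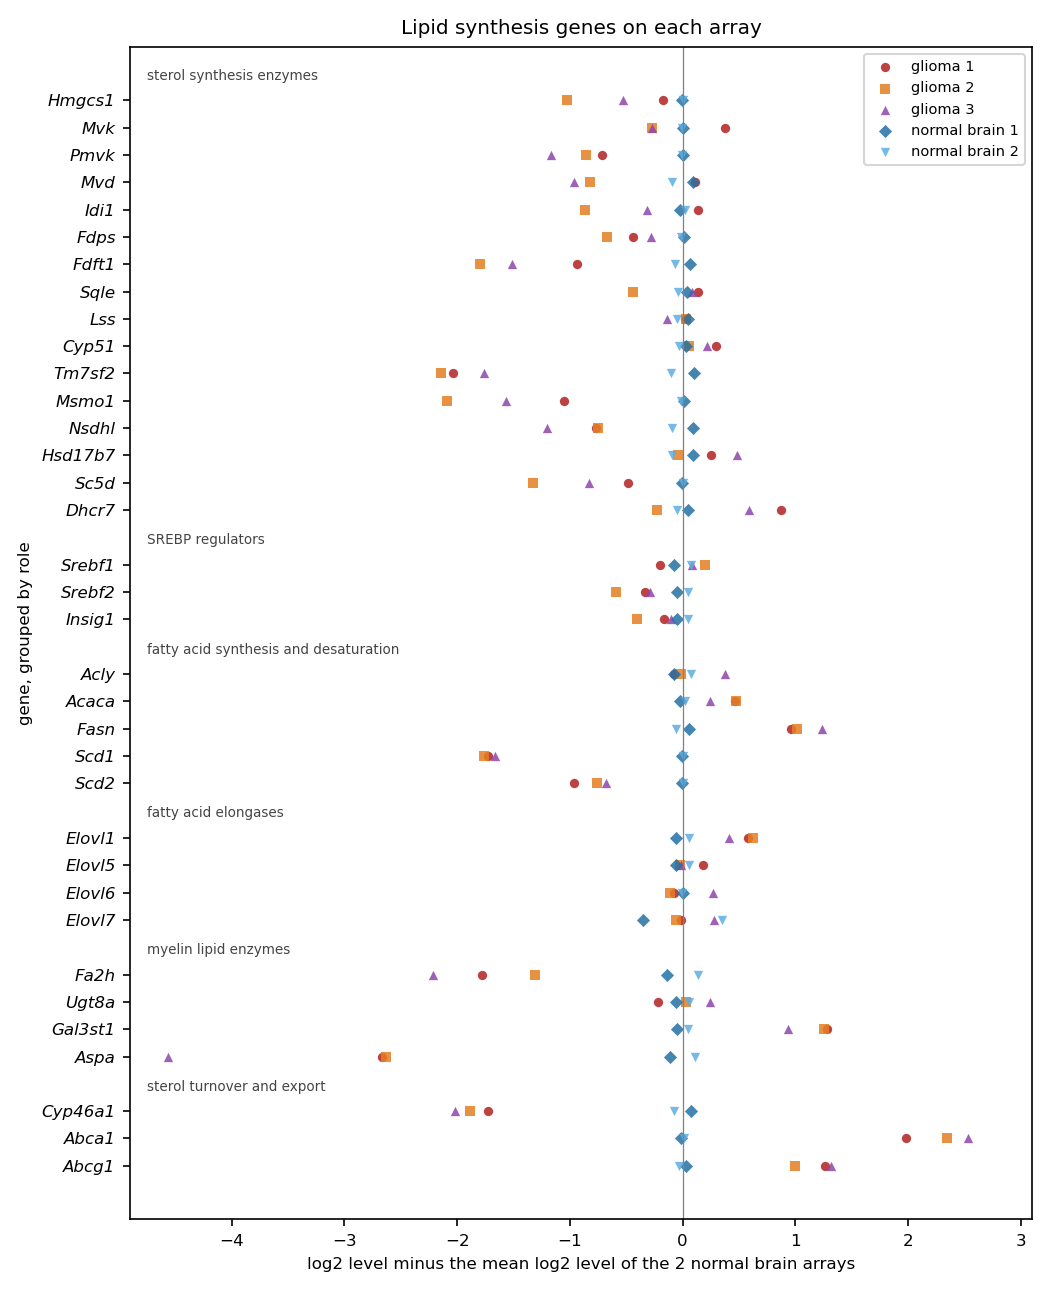
Level of each of the 35 genes on each array, as log2 level minus the mean of the 2 normal brain arrays (horizontal axis), with genes grouped by role (vertical axis). Each point is 1 array. Aspa, Fa2h, Tm7sf2, Cyp46a1 and Scd1 lie left of the normal brain arrays on all 3 gliomas, and Abca1, Abcg1, Gal3st1 and Fasn lie right of them.

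The regions before the gene starts are shown because SREBPs drive the sterol enzymes and act on fatty acid genes. SREBPs bind sterol response elements together with NF-Y, which binds CCAAT. No regulator shared by all 35 genes is assumed. RefSeq promoters (build GRCm38.p6) were matched for 28 of the 35 genes, with 36 promoters in all, and the 250 bases before each start were searched on both strands. The pentamer CCAAT was found in 24 of these 36 promoters (66.7%) against 33.8% of 32851 promoters in the table, and in at least 1 promoter of 13 of the 13 matched sterol enzymes. Counted by gene, it was found in 78.6% of the matched lipid genes and 37.5% of 27025 genes. The sterol response element core CACCCCAC was found in 2 of the 36, those of Hmgcs1 and Elovl7, against 2.58% of all promoters, and the looser form TCACNCCAC in 1 of them against 1.05%. The E-box CANNTG, which SREBPs also bind, was found in 66.7% of the 36 and 66.2% of all promoters. Promoters without CCAAT, such as those of Abca1, Acly and Ugt8a, are not printed. Those of 4 genes with CCAAT follow. Hmgcs1 also holds the sterol response element. Msmo1 and Tm7sf2 are sterol enzymes that were lower in glioma, and Fasn was higher. The 4 promoters are written 5′ to 3′ on the strand of the gene, with CCAAT and the sterol response element in capitals. There CCAAT of the opposite strand reads as ATTGG. In Fasn CCAATTGG holds CCAAT on both strands and also reads as an E-box in its inner bases.
Hmgcs1, chr13:119690101-119690350, plus strand: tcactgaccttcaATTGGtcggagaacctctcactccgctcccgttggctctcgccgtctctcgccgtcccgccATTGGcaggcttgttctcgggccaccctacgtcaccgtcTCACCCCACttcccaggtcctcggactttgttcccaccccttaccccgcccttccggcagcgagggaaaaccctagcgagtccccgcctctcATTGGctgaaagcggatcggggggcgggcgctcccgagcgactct
Msmo1, chr8:64733579-64733828, minus strand: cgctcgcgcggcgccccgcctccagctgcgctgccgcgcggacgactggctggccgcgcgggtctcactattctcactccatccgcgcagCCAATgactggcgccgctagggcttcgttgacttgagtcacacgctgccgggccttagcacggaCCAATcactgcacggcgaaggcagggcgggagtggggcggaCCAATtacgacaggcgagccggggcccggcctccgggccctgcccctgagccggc
Tm7sf2, chr19:6067851-6068100, minus strand: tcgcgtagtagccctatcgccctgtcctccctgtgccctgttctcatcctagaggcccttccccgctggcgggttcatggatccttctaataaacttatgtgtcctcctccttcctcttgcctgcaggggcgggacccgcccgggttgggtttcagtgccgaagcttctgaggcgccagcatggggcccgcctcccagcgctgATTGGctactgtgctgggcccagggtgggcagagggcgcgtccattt
Fasn, chr11:120824548-120824797, minus strand: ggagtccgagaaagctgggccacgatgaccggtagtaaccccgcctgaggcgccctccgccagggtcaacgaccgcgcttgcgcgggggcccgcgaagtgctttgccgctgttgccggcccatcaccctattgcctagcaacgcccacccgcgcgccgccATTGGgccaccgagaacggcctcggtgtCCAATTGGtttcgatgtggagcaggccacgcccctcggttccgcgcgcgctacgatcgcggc
In Hmgcs1 the looser sterol response element starts 137 bases before the gene start, and the core lies inside it. CCAAT starts between 237 and 45 bases before the start in Hmgcs1, between 160 and 55 in Msmo1, at 47 in Tm7sf2 and between 90 and 59 in Fasn. These are matches of letters, and binding was not measured.

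Of the 16 sterol synthesis enzymes, 6 fell in glioma and none rose. They were Pmvk before squalene, Fdft1 at the step to squalene, and Tm7sf2, Msmo1, Nsdhl and Sc5d after lanosterol. The median change of the 16 was -0.51, and 13 of the 16 changes were negative. The calls make up 37.5% of the 16, against 51.4% of all genes in either direction and 27.8% lower, and the groups did not overlap for 9 of them (56.2%, against 74.1%). The other 10 did not pass.

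Tm7sf2, a reductase that acts on the sterol product of Cyp51, had the lowest adjusted p of these enzymes. Its level was -0.015, -0.12 and 0.26 in gliomas 1 to 3, against 2.12 and 1.92 in the normal brains. All gliomas lay well under both normal brains, a change of -1.98 ± 0.18 (SE) or 3.94-fold lower (adjusted p = 0.000966). Another Tm7sf2 probe gave -2.13.

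Msmo1, the oxidase that starts removal of the methyl groups at carbon 4 of the sterol ring, was at 3.17, 2.13 and 2.65 in glioma and 4.24 and 4.20 in normal brain. The gliomas were spread over a wider range than the normal brains and all lay under them. It fell by 1.57 ± 0.32 on the log2 scale, 2.97-fold (adjusted p = 0.0125). Nsdhl, an X-linked dehydrogenase of the same demethylation, was at -0.86, -0.85 and -1.30 in glioma and 0.0012 and -0.19 in normal brain. Its change of -0.91 ± 0.20 passed the test (adjusted p = 0.016), but a second Nsdhl probe changed by -0.10 and did not pass (adjusted p = 0.609). Sc5d, which puts the double bond into lathosterol, was at 1.39, 0.55 and 1.04 in glioma and 1.87 and 1.88 in normal brain. The groups did not overlap, and the change of -0.88 ± 0.27 lay close to the threshold (adjusted p = 0.0445).

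Fdft1 (squalene synthase, which commits farnesyl diphosphate to sterols) was at 1.74, 0.88 and 1.16 in glioma and 2.74 and 2.61 in normal brain. All gliomas were lower, by 1.42 ± 0.28 on average or 2.67-fold (adjusted p = 0.0114), and a dimmer Fdft1 probe gave -0.57 (adjusted p = 0.090). Pmvk (phosphomevalonate kinase) was at 3.70, 3.56 and 3.25 in glioma and 4.42 and 4.41 in normal brain. The groups did not overlap, with a change of -0.91 ± 0.18 or 1.88-fold lower (adjusted p = 0.0112), and another Pmvk probe gave -0.92.

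The enzymes around them did not pass. Hmgcs1, which makes HMG-CoA and opens the pathway, was at 4.81, 3.96 and 4.45 in glioma and 4.97 and 4.99 in normal brain. All gliomas were lower, but the change of -0.57 had a 95% interval of -1.28 to 0.13. Fdps (farnesyl diphosphate synthase) was also lower on every glioma array, with levels of 3.25, 3.01 and 3.41 against 3.69 and 3.67 and a change of -0.46 ± 0.17 (adjusted p = 0.0721). For Mvd (mevalonate diphosphate decarboxylase), Idi1 (isopentenyl diphosphate isomerase) and Mvk (mevalonate kinase) the groups overlapped, with changes of -0.56, -0.35 and -0.05. Sqle (squalene epoxidase) and Lss (lanosterol synthase) had changes of -0.07 and -0.03, with intervals of -0.64 to 0.49 and -0.38 to 0.33. Changes above 0 were measured for Cyp51 (lanosterol demethylase) at 0.19, Hsd17b7 (the ketoreductase of sterol demethylation) at 0.23 and Dhcr7 (which reduces dehydrocholesterol to cholesterol) at 0.41. Of these Dhcr7 was the least certain, with an interval of -0.48 to 1.31 and gliomas at 0.57, -0.53 and 0.28 around normal brains at -0.26 and -0.36. A second Hsd17b7 probe gave -0.02.

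Calls among the sterol enzymes depended on the scaling and on single arrays. Without scaling between arrays 3 of the 16 were lower (Fdft1, Tm7sf2 and Msmo1) Cyp51 and Hsd17b7 were higher, and the changes of Mvk, Idi1, Sqle and Lss lay above 0. Without either normal brain array Tm7sf2 was the only one of the 6 that still passed. Sc5d passed in 6 of 14 alternatives and did not pass without glioma 2 (adjusted p = 0.0524) or without glioma 3 (adjusted p = 0.0841). Hmgcs1 and Mvd passed as lower without glioma 1 (adjusted p = 0.0479 and 0.0138), and Dhcr7 as higher without glioma 2 (adjusted p = 0.0348).

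**Figure D2:**
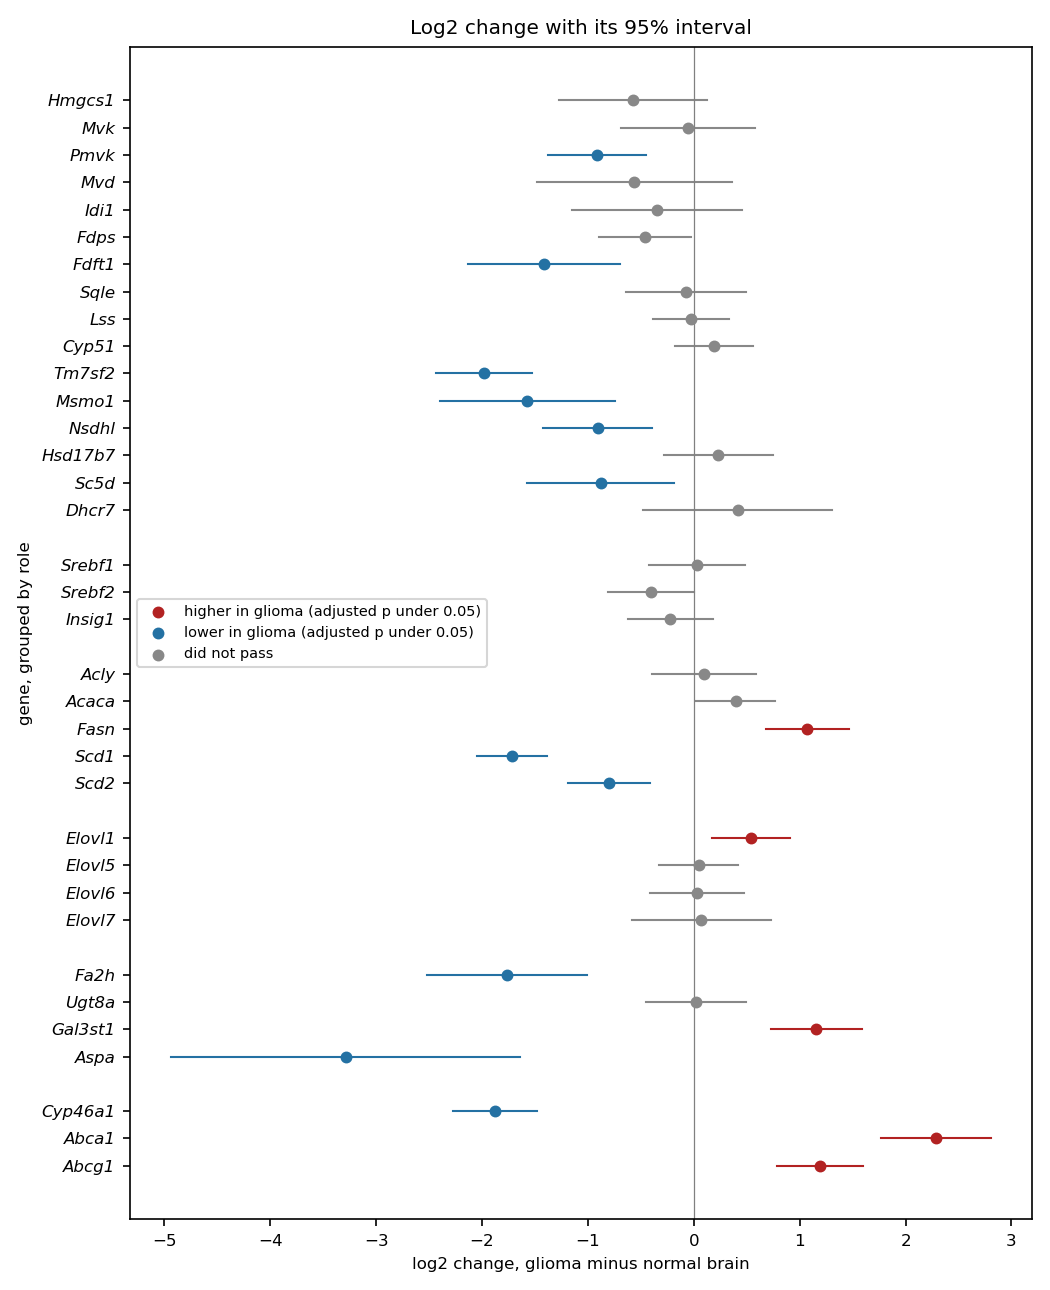
Change of each of the 35 genes between glioma and normal brain on the log2 scale (horizontal axis) with its 95% interval, from 3 glioma and 2 normal brain arrays. Genes are grouped by role (vertical axis); 5 were higher, 11 lower and 19 did not pass.

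Enzymes of the same pathway outside the 16 gave 1 rise and 2 falls among 7 (42.9% against 51.4% of all genes). Lbr, a protein of the inner nuclear membrane with the same sterol reductase activity as Tm7sf2, was 3.13-fold higher in glioma, a change of 1.65 ± 0.16 (adjusted p = 0.00129). The pair of reductases thus moved in opposite directions. Ebp, a sterol isomerase, changed by -0.63 ± 0.16 (adjusted p = 0.0232).

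The 3 gliomas differed from one another in the sterol enzymes more than the normal brains did. The median range of an enzyme was 0.61 over the gliomas and 0.07 between the normal brains, against 0.50 and 0.10 for all genes tested. A range over 3 samples tends to be wider than a range over 2 of equal spread, and this holds for all genes too. Glioma 2 had the lowest level of the 3 in 12 of the 16 enzymes (75%, against 31.7% of all genes), and glioma 1 the highest in 11 of the 16 (68.8%, against 37.3%). The median difference between glioma 1 and glioma 2 was 0.61 in these enzymes and 0.03 over all genes. Idi1 shows the pattern, at 2.42, 1.42 and 1.96 on gliomas 1 to 3, with both normal brains, at 2.26 and 2.30, between glioma 1 and glioma 3. Among the other sterol enzymes glioma 2 was lowest in 5 of 7. This ordering of single samples is a description and has no test. Neuron markers had the same order as the sterol enzymes, with glioma 2 lowest in 8 of 10 and glioma 1 highest in 6 of 10. Glioma 2 was highest in 9 of 9 genes of dividing cells and 9 of 10 of microglia and macrophages, against 4664 of all 16887 genes. The part of these cells in the sterol levels was not tested.

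**Figure D3:**
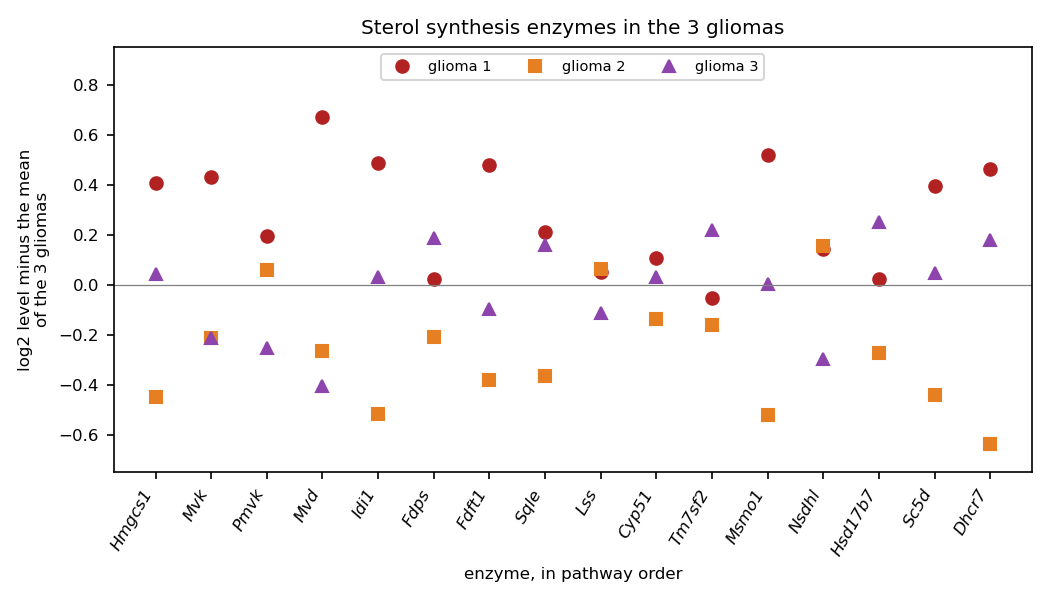
Level of the 16 sterol enzymes on the 3 glioma arrays, as log2 level minus the mean of the gliomas (vertical axis), with enzymes in pathway order (horizontal axis). Glioma 2 is the lowest point for 12 of the 16 enzymes and glioma 1 the highest for 11.

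The 3 regulators of the pathway did not pass the test. Srebf2, which encodes the SREBP of sterol enzymes, was at -0.25, -0.51 and -0.21 in glioma and 0.03 and 0.13 in normal brain. All gliomas were lower, with a change of -0.40 ± 0.16 (adjusted p = 0.0866), whereas a second probe gave 0.20. Srebf1, whose products act on fatty acid genes, changed by 0.03 (95% interval -0.43 to 0.48). Insig1, itself an SREBP target, was at -0.74, -0.98 and -0.68 in glioma and -0.63 and -0.53 in normal brain, with a change of -0.22 (95% interval -0.62 to 0.18) that turned to 0.13 without scaling between arrays. Of 10 genes of SREBP processing and sterol sensing 2 rose and 2 fell (40.0% against 51.4%). Mbtps1, the protease that makes the first cut in SREBPs, was higher by 0.81 ± 0.13 (adjusted p = 0.00597), and Rxra, a partner of the liver X receptors, by 0.68 (adjusted p = 0.044). The levels of Rxra were low, at -3.48, -3.04 and -2.94 in glioma and -3.89 and -3.77 in normal brain. Rxrb, another partner, changed by 0.03 and did not pass (adjusted p = 0.879). Insig2, a relative of Insig1, fell by 0.76 (adjusted p = 0.0411).

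Fatty acid synthesis and desaturation differed in direction. Fatty acid synthase rose, while the stearoyl-CoA desaturases Scd1 and Scd2 fell. Fasn was at 0.73, 0.78 and 1.00 in glioma and -0.18 and -0.29 in normal brain. The gliomas lay close together above the normal brains, 2.10-fold higher with a change of 1.07 ± 0.15 (adjusted p = 0.00381). Acaca, which makes the malonyl-CoA that Fasn uses, was at 3.81, 3.82 and 3.59 against 3.32 and 3.37. The groups did not overlap, but the change of 0.40 ± 0.15 did not pass (adjusted p = 0.0737), though it passed in 5 of 14 alternatives. Acly, which makes cytosolic acetyl-CoA from citrate, changed by 0.10 (95% interval -0.39 to 0.59), and a dimmer Acly probe by -0.83 (adjusted p = 0.024).

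Scd1, which with Scd2 turns saturated into monounsaturated fatty acids, was at 1.12, 1.08 and 1.19 in glioma and 2.84 and 2.85 in normal brain. Both groups were tight, and the change of -1.72 ± 0.13, or 3.29-fold lower, had the lowest adjusted p of the 35 genes (0.000656). Scd2, the main brain form, was at 6.05, 6.25 and 6.33 against 7.003 and 7.02. All gliomas were lower, by 0.80 ± 0.15 or 1.74-fold (adjusted p = 0.00951), and this call was lost without scaling between arrays and without either normal brain. Of their paralogs, Scd4 was higher by 0.47 ± 0.14 (adjusted p = 0.0411). Its levels were low, at -3.72, -3.64 and -3.52 in glioma and -4.04 and -4.16 in normal brain. For Scd3 the groups overlapped, and the change of 0.39 did not pass (95% interval -0.72 to 1.499).

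Of the genes that supply acetyl-CoA and NADPH, 4 of 7 rose and 1 fell (71.4% against 51.4%). The 4 make NADPH: Pgd by 0.86 (adjusted p = 0.0103), Me1 by 0.72 (adjusted p = 0.0107), G6pdx by 0.50 (adjusted p = 0.0369) and Idh1 by 0.50 (adjusted p = 0.0445). Acss2 and Slc25a1 changed by -0.23 and 0.43 and did not pass.

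Among the 4 elongases, Elovl1, which makes very long saturated chains for sphingolipids, rose. Its level was 4.004, 4.05 and 3.83 in glioma and 3.36 and 3.48 in normal brain. The groups did not overlap. A dimmer Elovl1 probe changed by 0.58 and did not pass (adjusted p = 0.0561). For the probe used here the change of 0.54 ± 0.14 was 1.45-fold (adjusted p = 0.0296). It did not pass without glioma 1, without glioma 2 or without either normal brain. Elovl5 (polyunsaturated chains), Elovl6 (saturated chains made by Fasn) and Elovl7 changed by 0.05, 0.03 and 0.07 with intervals of -0.32 to 0.42, -0.42 to 0.47 and -0.59 to 0.73. In all 3 the groups overlapped. Of 21 other genes of fatty acid synthesis and elongation 4 rose and 9 fell (61.9% against 51.4%). The largest rise was of Hacd1, a dehydratase of the elongation cycle, 4.76-fold at 2.25 ± 0.14 (adjusted p = 0.000472). Elovl2 and Hsd17b12, also of elongation, were higher by 1.07 (adjusted p = 0.039) and 0.62 (adjusted p = 0.0134). Other elongation genes fell: Elovl4 by 0.96 (adjusted p = 0.00898), Tecr by 0.81 (adjusted p = 0.0292) and Hacd3 by 0.77 (adjusted p = 0.0103). The largest falls were of the acyl-CoA synthetase Acsl6, by 2.01 ± 0.22 (adjusted p = 0.00168), of Fads3, by 1.99 ± 0.28 (adjusted p = 0.00385), and of Acsl4, by 1.38 (adjusted p = 0.0101).

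The 4 myelin lipid genes did not move as a unit: Aspa and Fa2h fell, Gal3st1 rose and Ugt8a did not pass. Calls were made for 75% of them, against 51.4% of all genes. Aspa frees acetate for lipid synthesis from N-acetylaspartate in oligodendrocytes. It was at -1.05, -1.02 and -2.94 on gliomas 1 to 3 and 1.51 and 1.73 in normal brain. Glioma 3 was the lowest by far, and all gliomas lay under the normal brains, a change of -3.29 ± 0.65 or 9.76-fold lower (adjusted p = 0.0108). Nat8l, which makes N-acetylaspartate in neurons, was also lower, 4.46-fold at -2.16 ± 0.14 (adjusted p = 0.000517).

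Fa2h hydroxylates the fatty acids of myelin galactolipids. It was at 0.61, 1.08 and 0.17 in glioma and 2.25 and 2.52 in normal brain. As with Aspa, glioma 3 was lowest, and the change was -1.77 ± 0.30 or 3.40-fold lower (adjusted p = 0.00651). Ugt8a, which adds galactose to ceramide, was at 1.02, 1.27 and 1.48 against 1.18 and 1.28. The gliomas lay on both sides of the normal brains, with a change of 0.02 (95% interval -0.45 to 0.49). Gal3st1, which sulfates that galactolipid to sulfatide, was at 1.99, 1.97 and 1.65 in glioma and 0.66 and 0.76 in normal brain. All gliomas were higher, by 1.16 ± 0.17 or 2.23-fold (adjusted p = 0.00415). Aspa did not pass without either normal brain, nor Fa2h without normal brain 2.

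Of 19 genes of sphingolipid synthesis and breakdown, 4 rose and 8 fell, or 63.2% in all against 51.4% of all genes. Sptlc2 and Sptlc1, subunits of the enzyme that starts sphingolipid synthesis, were higher by 0.82 ± 0.13 (adjusted p = 0.00573) and 0.64 (adjusted p = 0.0389), as was the ceramidase Asah1 by 0.59 (adjusted p = 0.0302). Sptlc3, also a subunit of that enzyme, was called lower, by at least 2.32-fold (adjusted p = 0.0198). It was well above background on both normal brains and on no glioma. The sphingomyelinase Smpd1 fell by 1.03 ± 0.17 (adjusted p = 0.0063), the ceramide synthase Cers6 by 0.91 (adjusted p = 0.00775) and the sphingomyelin synthase Sgms1 by 0.89 (adjusted p = 0.0346). Cers5, another ceramide synthase, rose by 0.55 (adjusted p = 0.0387). Of 5 genes of ether lipid synthesis, which makes the plasmalogens of myelin, Far1 fell by 1.13 ± 0.17 (adjusted p = 0.00488) and Tmem189 by 0.82 ± 0.15 (adjusted p = 0.00817). These calls are 40% of the 5, against 51.4% of all genes.

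All 3 genes of sterol turnover and export passed, against 51.4% of all genes. The exporters rose and the neuronal hydroxylase fell. Abca1, which loads cholesterol onto apolipoproteins, was at 2.54, 2.90 and 3.09 in glioma and 0.54 and 0.57 in normal brain. All gliomas stood far above the normal brains, 4.89-fold at 2.29 ± 0.20 (adjusted p = 0.000941). Abcg1, which passes cholesterol on to lipoprotein particles, was at 4.26, 3.99 and 4.31 against 3.03 and 2.97. It was higher in every glioma, 2.29-fold at 1.19 ± 0.16 (adjusted p = 0.00309). Both are targets of the liver X receptors. The genes of these receptors, Nr1h2 and Nr1h3, changed by 0.16 and -0.31 and did not pass (adjusted p = 0.692 and 0.370). Activity of the receptors was not tested. Cyp46a1, the hydroxylase by which neurons clear cholesterol, was at -1.10, -1.25 and -1.39 in glioma and 0.70 and 0.55 in normal brain. The groups were far apart, with a change of -1.88 ± 0.16 or 3.67-fold lower (adjusted p = 0.000818).

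Of 19 other genes of sterol uptake, storage and transport 2 rose and 7 fell, or 47.4% in all against 51.4% of all genes. Npc2, which takes cholesterol out of lysosomes, and the lipoprotein receptor Lrp1 were higher, by 1.30 ± 0.23 (adjusted p = 0.00767) and 1.23 ± 0.23 (adjusted p = 0.00881). The largest falls were of Abcg4, a transporter related to Abcg1, by 2.35 ± 0.14 (adjusted p = 0.000458), Abca2 by 1.71 ± 0.13 (adjusted p = 0.000671) and the lipoprotein receptor Lrp8 by 1.48 ± 0.17 (adjusted p = 0.00201). Over all 88 tested genes outside the 35, 17 rose and 31 fell (54.5% against 51.4%) with a median change of -0.23.

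Markers of brain cell types differed between the same arrays. For comparison, 23.7% of all genes were called higher and 27.8% lower in glioma. Markers of myelin and the mature oligodendrocyte fell in 12 of 18, with no rise. Their summed signal, relative to the 75th percentile, was 207, 437 and 114 on gliomas 1 to 3 and 511 and 545 in normal brain. Glioma 3 was thus the lowest glioma, as for Aspa, Fa2h and Gal3st1, which rose, whereas Ugt8a was highest there. Glioma 3 was also the lowest glioma in 9 of 10 microglia and macrophage markers, 7 of 10 astrocyte markers and 6499 of all 16887 genes. Such sums weigh bright probes most: Mag, which did not pass, gave 48.8% of the sum of glioma 2, and without it the sums were 167, 224 and 106 against 474 and 505. Of 10 neuron markers 10 fell, and their sum was 42.7 to 66.9 in glioma and 386 to 392 in normal brain. Oligodendrocyte progenitor markers were higher in 9 of 10 and summed to 407 to 468 against 48.0 to 48.6, and markers of dividing cells were higher in 9 of 9 and summed to 51.2 to 79.4 against 9.05 to 9.30. Microglia and macrophage markers were higher in 5 of 10 and lower in 1, with a sum of 85.6 to 196 against 97.0 to 100. Itgam, the marker that fell, gave 44.7% and 44.8% of the normal brain sums, and without it the sums were 64.7 to 181 against 53.6 to 55.2. Those sums leave out the only marker of this list that was called lower, and 4 of the 10 did not pass. Astrocyte markers fell in 4 of 10, with a sum of 209 to 351 against 378 to 389, and endothelial markers in 7 of 8, with a sum of 19.2 to 21.5 against 43.4 to 44.2. The 6 choroid plexus markers all fell, with a sum of 0.297 to 0.417 against 245 to 251, and 4 of the 6 were still well above background on every glioma array. All 10 neuron markers and 16 of the 18 of myelin were well above background on all 5 arrays. The part of these differences in the changes of the lipid genes was not tested.

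**Figure D4:**
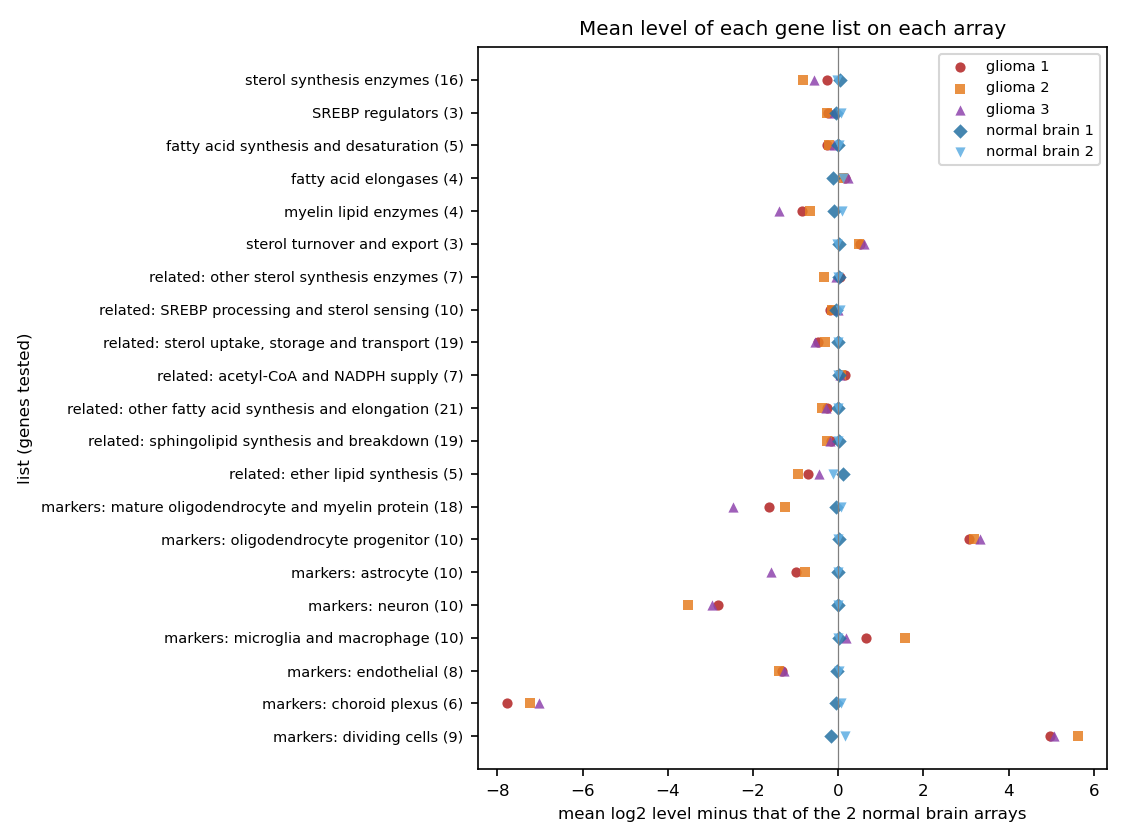
Mean log2 level of each gene list on each array minus that of the 2 normal brain arrays (horizontal axis), with the number of genes tested beside each list (vertical axis). Lipid lists lie nearer to normal brain than the markers of neurons, oligodendrocyte progenitors, choroid plexus and dividing cells. Glioma 3 is the lowest of the gliomas for both myelin lists, the astrocyte markers and the microglia and macrophage markers. For the microglia and macrophage markers it lies above both normal brain arrays.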

How the data were processed

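Total RNA was hybridised to single-colour Agilent SurePrint G3 mouse arrays, 3 of glioma and 2 of normal brain. The scanner files hold intensity values per spot, deposited by the authors. The submitters' processing notes name Agilent Feature Extraction, version 10.7.3.1. Its background subtraction is recorded in the file headers, which list no step that scales arrays to each other. The deposited files also hold flags of spots well above background, saturated or outlying. The authors' deposited value table holds log2 of the processed signal with no scaling between arrays.

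Control spots and 23 probes with every spot of an array marked as an outlier were left out, and repeated spots were averaged. The log2 signal minus each array's 75th percentile was used. Of the remaining 55658 probes, 28013 could be named among the 29787 that carried a RefSeq accession. The brightest probe stood for a gene, and the test covered 16887 genes detected on 2 or more arrays. It was limma's moderated test (version 3.58.1, R 4.3.3; lmFit followed by eBayes), two-sided, with Benjamini-Hochberg adjustment. The fit was tested on simulated data. Other software was the data.table package 1.17.8, Python 3.11.15, pandas 2.3.3, numpy 2.4.6 and matplotlib 3.10.9. Of the 35 genes, 24 had 1 detected probe and 11 had several, with opposite directions in 3 (Acly, Hsd17b7 and Srebf2). The number of arrays limits the precision.

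The 35 genes and all lists were chosen with earlier results of these data known. Every one of the 35 is described. From each related list at most the 3 largest called rises and 3 largest called falls among genes detected on all arrays are named, and any gene of a list of up to 7. Some genes of the related lists are counted but not reported here by name. Outside that rule, Scd3, Scd4, Elovl4, Tecr, Hacd3, Rxrb, Sptlc3, Cers5, Nr1h2, Nr1h3, Mag and Itgam were named after their values were seen. The marker sums without 1 gene were likewise added after seeing the data. In the alternative of normexp background correction with an offset of 50, median spot signals stood in for mean signals, which were not used here.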

Additional observations from a re-analysis of the deposited data

How the results depend on the processing

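Under 14 alternatives none of the 16 called lipid genes changed sign, and Abca1, Abcg1, Cyp46a1, Fasn, Gal3st1, Scd1 and Tm7sf2 passed in every one. Alternatives that altered only the filter on dim probes or the eBayes step kept each change as it was, so they could not turn a sign. The replicate block gave the same changes as leaving out glioma 3. Of the 19 others, 7 passed in at least 1 alternative (Hmgcs1, Mvd, Fdps, Cyp51, Hsd17b7, Dhcr7 and Acaca). Leaving out 1 array at a time gave 4629 to 9323 genes called, 7 to 17 of the 35 genes called, 4 to 6 higher and 3 to 13 lower, and 1 to 8 sterol enzymes lower, with the low counts without normal brain 1 or 2, where the lone normal brain is assumed to vary like the gliomas. Without normal brain 1, 8 of the 35 passed (Pmvk, Fdft1, Msmo1, Nsdhl, Sc5d, Scd2, Elovl1 and Aspa were lost), and without normal brain 2, 7 passed (Fa2h was lost too). Without scaling between arrays 8 of the 35 were higher, 7 lower and 3 sterol enzymes lower, and Idi1, Insig1, Mvk, Sqle and Lss turned to 0.010, 0.13, 0.30, 0.28 and 0.33. Under quantile normalization Mvk was at 0.050 and Sqle at 0.022, under normexp correction Sqle was at 0.010, and as a mean over detected probes Acly was at -0.37, and Nsdhl was no longer called. No pairing of samples by the replicate numbers of glioma and normal brain was seen (correlations of same-numbered deviations 0.01 and 0.05). The 2 normal brains deviate from their own mean by equal and opposite amounts, so this check cannot exclude pairing. With the numbers as a replicate block 8261 genes and 15 of the 35 passed (Sc5d was lost, as under median centring and with no filter on dim probes), and Mvk, Lss, Srebf1, Acly, Elovl6, Elovl7 and Ugt8a were at 0.052, 0.030, -0.0015, -0.044, -0.093, -0.033 and -0.091. Leaving out 1 array also turned uncalled genes, with ranges of -0.27 to 0.053 for Mvk, -0.18 to 0.11 for Sqle, -0.075 to 0.030 for Lss, -0.059 to 0.14 for Srebf1, -0.044 to 0.18 for Acly, -0.020 to 0.11 for Elovl5, -0.093 to 0.099 for Elovl6, -0.28 to 0.42 for Elovl7 and -0.091 to 0.14 for Ugt8a. The cause of these turns was not tested. With 5 arrays, changes as small as most of those that did not pass are not resolved.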
